A study of Mus musculus with 24 samples.

Results

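Genes of dopamine synthesis, transport, reception and breakdown were followed in the hypothalamus of ob/ob mice given γ-oryzanol, with the liver as contrast. The members were 9 genes, Th, Ddc, Gch1, Slc6a3, Slc18a2, Drd2, Nr4a2, Maoa and Maob, and every probe set annotated to 1 of these symbols alone was taken, which gave 17 of the 45101 probe sets of the array. Nr4a2 had 6 probe sets, Ddc, Gch1 and Maoa had 2 each and the other genes had 1 each. No probe set listed a member together with another gene.

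The study put total RNA from liver and hypothalamus of male ob/ob mice on 24 Affymetrix mouse arrays. Regular γ-oryzanol (Regular-Orz) was compared with its vehicle methylcellulose (Regular-Veh), and γ-oryzanol encapsulated in PLGA nanoparticles (Nano-Orz) with its vehicle water (Nano-Veh). Each was given by mouth for 4 weeks until 9 weeks of age. There were 3 arrays per group in each tissue, labelled as biological replicates. Treated arrays are called Orz 1, Orz 2 and Orz 3 and vehicle arrays Veh 1, Veh 2 and Veh 3, separately for each arm. All groups carried the ob mutation and thus lacked leptin, no lean mice were on the arrays, and the 3 mice of a group were chosen as representative of it. γ-Oryzanol is a mixture of ferulic acid esters from rice bran. The labels give no dose, and the arms differ in formulation as well as in vehicle.

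Dopamine is made in a short pathway. Tyrosine hydroxylase, encoded by Th, turns tyrosine into L-DOPA and is the rate-limiting step, Gch1 encodes the enzyme that starts synthesis of its cofactor tetrahydrobiopterin, and Ddc encodes the decarboxylase that turns L-DOPA into dopamine and also makes serotonin. Slc18a2 encodes VMAT2, which loads monoamines into vesicles in dopamine, noradrenaline, serotonin and histamine neurons, and Slc6a3 encodes DAT, the transporter that takes dopamine back up at the plasma membrane. Drd2 encodes an inhibitory dopamine receptor that is also the autoreceptor of these neurons. Nr4a2, also called Nurr1, is an orphan nuclear receptor needed for midbrain dopamine neurons to form, and Maoa and Maob encode the mitochondrial monoamine oxidases. In the hypothalamus, dopamine neurons of the arcuate nucleus release dopamine to the pituitary and restrain prolactin, whereas the dopamine neurons of the midbrain, which lies just behind the hypothalamus, hold the most Slc6a3.

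The promoters of 4 members are shown because these 4 genes followed nearly the same order across the Nano-Orz and Nano-Veh hypothalamus arrays. The windows run from 250 bases before to 50 bases after the annotated start and come from RefSeq on GRCm38.p6. The members had 9 such windows for 8 genes, with 2 starts for Ddc and none for Maob. Capitals mark the cAMP response element TGACGTCA and the Nr4a family element AAAGGTCA, which was searched on both strands and reads TGACCTTT on the opposite strand. The cAMP response element was in 2 of the 9 windows and in 1.79% of all 32851 promoter windows, and the Nr4a family element in 1 of the 9 and in 1.51% of all.
Th (chr7:142899946-142900245, minus strand): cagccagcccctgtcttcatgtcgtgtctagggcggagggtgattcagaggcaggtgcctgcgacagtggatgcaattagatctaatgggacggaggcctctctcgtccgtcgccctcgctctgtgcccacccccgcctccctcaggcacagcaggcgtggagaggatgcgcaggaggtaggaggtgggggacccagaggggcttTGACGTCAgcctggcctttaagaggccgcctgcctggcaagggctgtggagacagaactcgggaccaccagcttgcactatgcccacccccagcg
Slc18a2 (chr19:59260628-59260927, plus strand): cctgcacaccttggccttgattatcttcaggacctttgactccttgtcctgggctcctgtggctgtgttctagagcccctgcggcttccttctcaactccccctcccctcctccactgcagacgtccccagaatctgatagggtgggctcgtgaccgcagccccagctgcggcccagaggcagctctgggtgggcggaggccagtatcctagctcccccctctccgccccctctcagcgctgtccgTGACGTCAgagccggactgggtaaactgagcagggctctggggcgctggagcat
Ddc, upstream start (chr11:11898095-11898394, minus strand): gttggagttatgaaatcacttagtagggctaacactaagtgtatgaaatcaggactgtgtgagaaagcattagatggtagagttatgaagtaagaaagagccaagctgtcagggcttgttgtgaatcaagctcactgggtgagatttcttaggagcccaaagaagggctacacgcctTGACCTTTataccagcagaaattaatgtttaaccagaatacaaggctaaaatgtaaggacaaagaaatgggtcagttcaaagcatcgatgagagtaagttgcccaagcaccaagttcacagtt
Slc6a3 (chr13:73536497-73536796, plus strand): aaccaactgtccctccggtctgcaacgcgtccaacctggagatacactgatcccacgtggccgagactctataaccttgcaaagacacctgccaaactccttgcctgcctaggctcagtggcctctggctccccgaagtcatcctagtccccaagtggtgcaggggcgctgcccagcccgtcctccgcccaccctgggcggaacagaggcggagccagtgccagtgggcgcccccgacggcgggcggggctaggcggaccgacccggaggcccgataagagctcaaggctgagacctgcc
The element of Th starts 45 bases before the annotated start, that of Slc18a2 starts 4 bases before it, and that of Ddc starts 73 bases before it. The Slc6a3 window holds neither run of letters, nor does the window of the second Ddc start (chr11:11890359-11890658), which is not shown. Which Ddc start is used in hypothalamus was not examined. These are matches of letters only, and no binding was measured.

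The values are log2 signals of the distribution free weighted method (DFW), which draws arrays together strongly. The 6 hypothalamus arrays of an arm spanned 0.001 log2 units or more for 1.002% of probe sets with regular and 0.344% with nano treatment, so a difference ranks a probe set but is not a fold change. Calls came from the rank product, with an estimated proportion of false positives (pfp) under 0.05, and limma gave each difference with its standard error (SE). Called probe sets were mostly those of wide spread: 61.8% of the calls with Regular-Orz and 62.3% with Nano-Orz lay among the 452 probe sets with the largest standard deviation. Ttr, the transthyretin gene expressed at high level in choroid plexus, read 16.36 in Veh 1 and 16.24 in Veh 2 of the nano arm against 9.33 in Veh 3, 7.11 in Orz 1, 13.18 in Orz 2 and 10.28 in Orz 3 (probe set 1454608_x_at). With regular treatment the thalamic kinase gene Prkcd ran from 7.68 in Orz 2 to 7.89 in Orz 3, with the other arrays between. In these whole-tissue RNA samples, fewer cells of a type and less RNA per cell cannot be told apart.

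Slc6a3 was the only member called in both arms, and it was lower in treated arrays in both. Its log2 signal in the regular arm was 7.1364, 7.1357 and 7.1370 in Veh 1 to 3 and 7.1350, 7.1349 and 7.1357 in Orz 1 to 3. Every Regular-Orz array thus lay below every Regular-Veh array, with Orz 3 at 7.135691 and Veh 2 at 7.135713 the closest pair. The difference was -0.00119 ± 0.000423 (SE, n = 3 per group, pfp = 0.00447). The nano arm gave 7.354, 7.381 and 7.337 in Veh 1 to 3 and 7.310, 7.321 and 7.371 in Orz 1 to 3. Orz 3 was the second highest of the 6 arrays, so the groups overlapped. The difference was -0.0230 ± 0.0207 (SE, n = 3 per group, pfp = 0.000294), which is about its standard error. It moved to -0.0111 without Orz 1 or without Veh 2 and to -0.0413 without Orz 3.

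Of the 17 member probe sets, 1 was called lower with Regular-Orz and 2 with Nano-Orz, and none was called higher. Over all probe sets, 0.379% were called lower and 0.177% higher with Regular-Orz, 0.557% together, and 0.723% were called lower and 0.242% higher with Nano-Orz, 0.965% together. Slc6a3 was at the 99.3 percentile of spread in the regular arm and at the 99.99 percentile in the nano arm, and among the 452 probe sets of widest spread 29.2% and 51.1% were called lower in these arms. limma did not carry either call: its adjusted p for Slc6a3 was 0.871 with Regular-Orz and 0.960 with Nano-Orz, and it called 0 of the 45101 probe sets in both, with 2563 (5.68%) and 2753 (6.1%) at an unadjusted p below 0.05. An exact permutation test of the 6 arrays gave p = 0.1 for Slc6a3 in the regular arm, two-sided, the smallest that 3 arrays against 3 allow, and p = 0.4 in the nano arm. The call was lost in the regular arm without Veh 1 (pfp = 0.0788) or without Veh 3 (pfp = 0.0971), and in the nano arm without Veh 2 (pfp = 0.0548). A rank product on differences divided by each probe set's spread did not call Slc6a3 either (pfp = 0.0525 and 0.691).

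**Figure D1:**
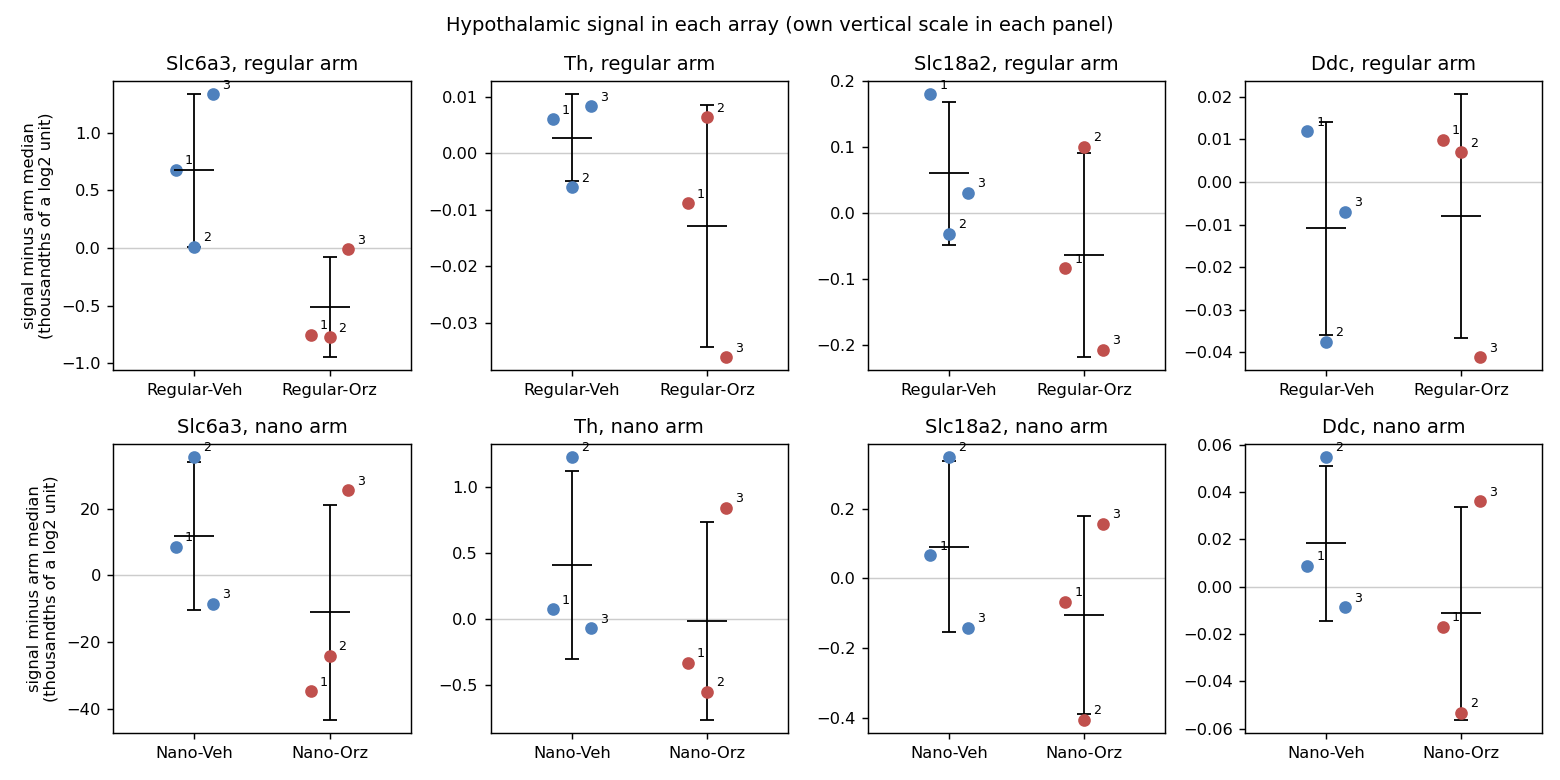
Signal of Slc6a3, Th, Slc18a2 and Ddc (probe set 1426215_at) in each hypothalamus array, as the difference from the median of the arm's 6 arrays in thousandths of a log2 unit; numbers are replicates, horizontal ticks are group means and bars are 1 SD, and each panel has its own scale. Regular-Orz and Regular-Veh arrays do not overlap for Slc6a3, whereas in the nano arm Veh 2 and Orz 3 are the 2 highest arrays for all 4 genes.

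Slc18a2, the vesicular transporter, was lower on average in both arms and was called in neither. Regular-arm arrays read 8.40931, 8.40909 and 8.40916 in Veh 1 to 3 and 8.40904, 8.40923 and 8.40892 in Orz 1 to 3. Orz 2 lay above 2 of the 3 vehicle arrays, and the difference was -0.000123 ± 0.000101 (SE, n = 3 per group, pfp = 0.135). Nano-arm arrays read 7.89828, 7.89856 and 7.89807 in Veh 1 to 3 and 7.89815, 7.89781 and 7.89837 in Orz 1 to 3. Here Orz 3 was again second to Veh 2, and the difference was -0.000196 ± 0.000199 (SE, n = 3 per group, pfp = 0.0874). Leaving out Orz 2 in the regular arm (pfp = 0.0242) or Orz 3 in the nano arm (pfp = 0.0202) would have called it lower, so in each arm 1 treated array set the side of the threshold. After quantile normalization the differences shrank to -7.30e-05 and -2.49e-05.

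Th, the rate-limiting enzyme, was called lower in the nano arm alone. It read 8.29871, 8.29987 and 8.29856 in Veh 1 to 3 and 8.29830, 8.29808 and 8.29948 in Orz 1 to 3. Orz 1 and Orz 2 were the 2 lowest arrays, but Orz 3 was above Veh 1 and Veh 3. The difference was -0.000425 ± 0.000551 (SE, n = 3 per group, pfp = 0.0155), smaller than its standard error, with an adjusted p of 0.998 in limma. The call did not hold without Orz 1 (pfp = 0.0675), Orz 2 (pfp = 0.0932), Veh 1 (pfp = 0.0935), Veh 2 (pfp = 0.295) or Veh 3 (pfp = 0.0810), and held only without Orz 3 (pfp = 0.000952). Without Veh 2 the difference shrank to -1.45e-05. After quantile normalization the pfp was 0.114, and with spread-divided differences 0.882. With Regular-Orz, Th differed by -1.57e-05 ± 1.22e-05 (SE, n = 3 per group, pfp = 0.667), with Orz 3 the lowest array and Orz 2 level with Veh 1.

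Ddc and Gch1 were called in neither arm. The Ddc probe set 1426215_at differed by 2.81e-06 ± 2.03e-05 (SE, n = 3 per group) in the regular arm and by -2.96e-05 ± 2.95e-05 (SE, n = 3 per group) in the nano arm. Its 6 nano-arm arrays had exactly the order of Th, Veh 2 highest and Orz 2 lowest, within a span of 0.000108. The second Ddc probe set, 1430591_at, spanned 2.34e-06 and 7.31e-06 in the 2 arms. Of the Gch1 probe sets, 1420499_at differed by -6.22e-06 and 3.25e-07 in the regular and nano arms and 1429692_s_at by 1.17e-05 and -4.15e-06, so the direction differed between arms and between probe sets. The pfp values of these 4 probe sets ran from 0.268 upward.

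Drd2, the receptor, differed by -1.26e-05 ± 1.02e-05 (SE, n = 3 per group) in the regular arm and by -8.60e-06 ± 1.57e-05 (SE, n = 3 per group) in the nano arm, with overlapping arrays in both. Neither was called, with pfp values of 0.697 and 0.891 for lower signal.

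Nr4a2 was called by none of its 6 probe sets in either arm. The probe set 1455034_at read, in the regular arm, 8.28153, 8.28167 and 8.28151 in Veh 1 to 3 and 8.28083, 8.28090 and 8.28193 in Orz 1 to 3. Orz 1 and Orz 2 were below all vehicle arrays and Orz 3 was above all of them, which gave -0.000349 ± 0.000332 (SE, n = 3 per group, pfp = 0.163). The probe sets 1447863_s_at and 1450750_a_at also had Orz 1 and Orz 2 below all vehicle arrays, with Orz 3 above all or all but 1 of them. Without Orz 3 these 3 probe sets were called lower, with pfp values of 0.00721, 0.0345 and 0.0263. Over all probe sets of this arm, 171 were called lower with Orz 3 kept and 416 without it. The gain in calls was thus not particular to Nr4a2. Orz 3 was the array with the highest thalamus marker signals in that arm, where 5 of 8 thalamus marker genes were called lower, among them Prkcd, Tcf7l2, Plekhg1 and Rora, and 26 of their 30 probe sets had a negative difference. The summed log2 signal of these probe sets, given as its mean per probe set, ran from 8.327 to 8.344 in Regular-Orz and from 8.338 to 8.340 in Regular-Veh, and its part in the Nr4a2 values was not tested. A further Nr4a2 probe set, 1433422_at, had all Regular-Orz arrays below all Regular-Veh arrays, with a difference of -2.54e-06. With Slc6a3 this made 2 of 17 member probe sets without overlap in the regular arm, beside 5.04% of all probe sets lower and 5.87% higher without overlap, and 0 of 17 in the nano arm, beside 4.95% and 6.18%. The Nr4a2 probe sets 1450749_a_at and 1433423_at differed by -1.38e-05 and 2.43e-07 in the regular arm, with overlapping arrays. In the nano arm they differed by -4.97e-07 and -7.61e-07. The widest span of an Nr4a2 probe set in the nano arm was 5.44e-05.

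Of the breakdown enzymes, Maob varied widely between treated arrays of the regular arm and was not called. It read 9.758241, 9.758316 and 9.758155 in Veh 1 to 3 and 9.758375, 9.757684 and 9.758967 in Orz 1 to 3. Orz 2 was the lowest and Orz 3 the highest of the 6 arrays, and the difference was 0.000105 ± 0.000346 (SE, n = 3 per group, pfp = 0.181 for higher signal). With Nano-Orz, Maob differed by 6.70e-06 ± 3.66e-06 (SE, n = 3 per group). The largest of the 4 Maoa differences was -2.60e-06, for 1442676_at in the nano arm.

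Across all members, 12 of 17 probe sets had a negative difference with Regular-Orz and 13 of 17 with Nano-Orz, with median differences of -6.22e-06 and -7.61e-07. Over all probe sets 50.8% and 48.3% were negative, and the median differences were -1.47e-08 and 2.43e-08. Probe sets of 1 gene are not independent, and 6 of the 17 belong to Nr4a2.

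**Figure D2:**
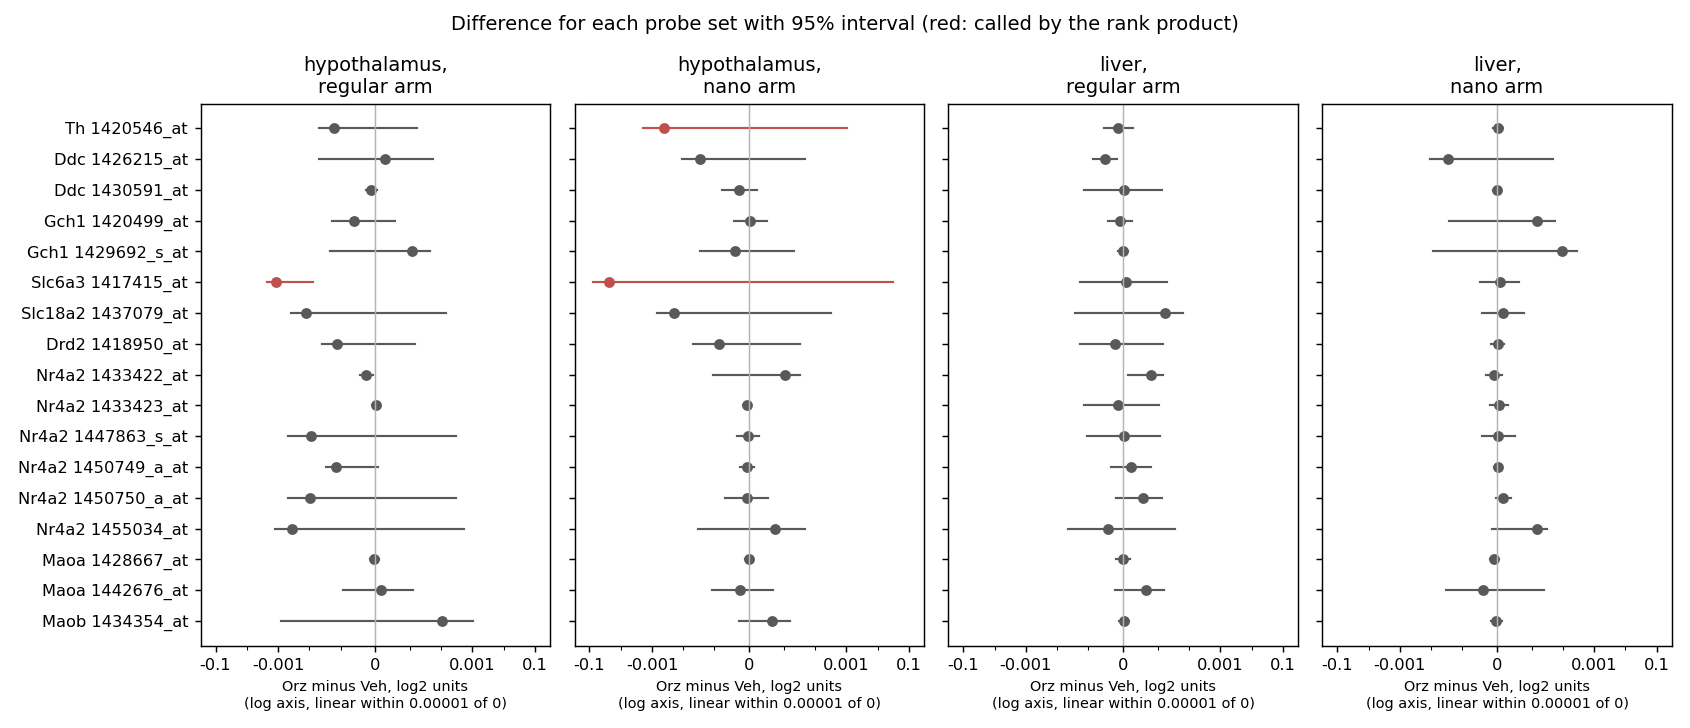
Treated minus vehicle signal for each of the 17 probe sets in 4 comparisons, in log2 DFW units on an axis that is logarithmic outside 0.00001 of 0; points are differences of 3 against 3 arrays, lines are limma's 95% intervals, and red marks probe sets called by the rank product. Slc6a3 is called in both hypothalamus arms and Th in the nano arm, and no member is called in liver.

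The arms were compared by the difference between their effects in limma, which cannot tell apart dose, formulation and vehicle. No member differed between arms after adjustment over all probe sets, where 2 of 45101, or 0.00443%, passed, and 6.87% had an unadjusted p below 0.05. For Slc6a3 the Nano-Orz effect minus the Regular-Orz effect was -0.0218 ± 0.0215 (SE, 12 arrays) with an adjusted p of 0.942 in limma, and its 95% interval ran from -0.0707 to 0.0271. The signals of Slc6a3 also spread far more in the nano arm, with SDs of 0.0322 in Nano-Orz and 0.0222 in Nano-Veh against 0.000434 in Regular-Orz and 0.000661 in Regular-Veh. For Th the difference between arms was -0.000410 ± 0.000572 (SE, 12 arrays) with an adjusted p of 0.975 in limma. A size in DFW units depends on the set of arrays quantified together, so a larger number in 1 arm is not a larger change in RNA.

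Over the nano-arm arrays, 21 of the 36 pairs of member genes had a positive Pearson's r, and over the regular-arm arrays 22 of 36. A group of 4 genes, chosen here for its shared order in the nano arm, stood close together. Th, Ddc, Slc6a3 and Slc18a2 all had Veh 2 highest and Orz 3 second, and Orz 1 and Orz 2 were the 2 lowest arrays for Th, Ddc and Slc6a3. Over the 6 pairs of these genes, r ran from 0.837 to 0.980 and Spearman's rho from 0.829 to 1 (n = 6 arrays). For each pair, the 2 arrays farthest from the median of its first-listed gene were also left out, so the arrays dropped could differ between pairs. On the 4 arrays left, r ran from 0.833 to 0.976. The exact permutation p-values adjusted over the 72 pairs computed in both arms ran from 0.133 to 0.350 for r, and none of the 72 passed for r or for rho. Th and Ddc had the same order in all 6 arrays, and their rho still had an adjusted p of 0.171 (exact permutation p = 0.00278). With 6 arrays a single pair thus could not pass. Among regular-arm arrays r ran from -0.0957 to 0.896 among the same genes and was 0.896 for Th and Slc18a2 (exact permutation p = 0.025, adjusted p = 0.257) and 0.286 for Th and Slc6a3 (exact permutation p = 0.606, adjusted p = 0.766). Spearman's rho was 0.771 (exact permutation p = 0.103, adjusted p = 0.389) and 0.371 (exact permutation p = 0.497, adjusted p = 0.716) for these pairs. The shared order of the nano arm was thus not seen for Slc6a3 in the regular arm, and the difference between arms in these correlations was not tested.

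**Figure D3:**
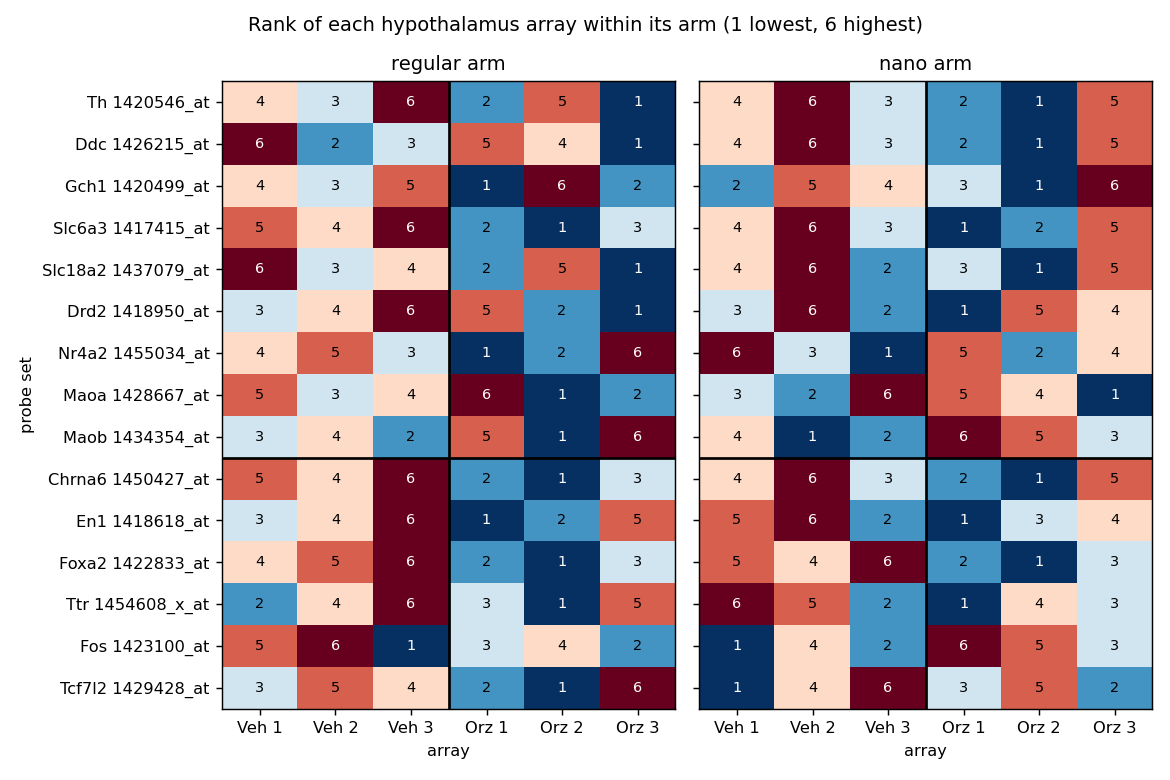
Rank of each hypothalamus array among the 6 of its arm, 1 lowest and 6 highest, for 1 probe set of each member and below the line for Chrna6, En1, Foxa2, Ttr, Fos and Tcf7l2. In the nano arm Th, Ddc, Slc6a3 and Slc18a2 share their highest array (Veh 2) and the next (Orz 3), and Chrna6 follows Slc6a3 in both arms.

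The gene whose signal followed Slc6a3 most closely was Chrna6, which encodes a nicotinic receptor subunit concentrated in midbrain dopamine neurons. Over the 12 hypothalamus arrays, each centred on its arm's median, Spearman's rho was 0.993 for the probe set 1450427_at and Pearson's r was 0.956. The next were Inka2 (rho 0.965), Rdh5 (0.965), a retinol dehydrogenase gene, Dnm2 (0.958), which encodes dynamin 2, and Dcxr (0.951), which encodes a xylulose reductase. These are the highest of all genes and so are given as a description, with no p. Across regular-arm arrays Chrna6 read 6.92789404, 6.92789404 and 6.92789705 in Veh 1 to 3 and 6.92788528, 6.92788514 and 6.92789095 in Orz 1 to 3, which, with Veh 2 below Veh 1 in the next digit, is the order of Slc6a3. Across nano-arm arrays it read 6.62882, 6.62890 and 6.62877 in Veh 1 to 3 and 6.62872, 6.62868 and 6.62886 in Orz 1 to 3, which differs from the order of Slc6a3 only in that Orz 1 and Orz 2 change places. Chrna6 itself was not called in either arm, with differences of -7.92e-06 ± 2.02e-06 (SE, n = 3 per group, pfp = 0.758) and -7.95e-05 ± 6.24e-05 (SE, n = 3 per group, pfp = 0.0788).

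**Figure D4:**
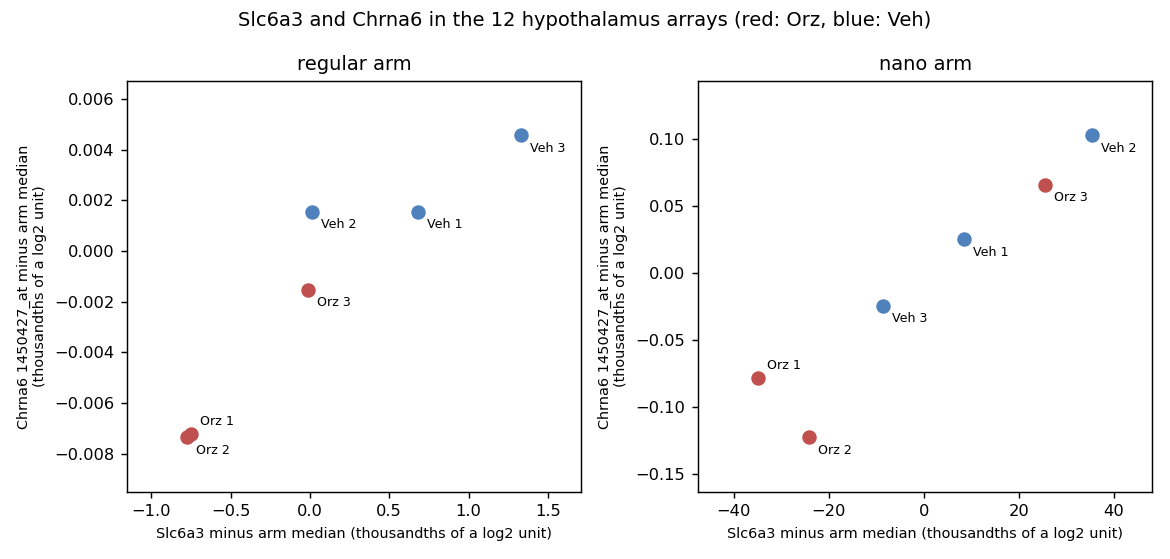
Chrna6 (probe set 1450427_at) against Slc6a3 in the 12 hypothalamus arrays, each as the difference from its arm's median in thousandths of a log2 unit, with treated arrays in red and vehicle arrays in blue. The arrays keep the same order on both axes in the regular arm; with Nano-Orz and Nano-Veh, Orz 1 and Orz 2 change places.

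The whole list of midbrain dopamine neuron markers was less uniform. Of its 11 probe sets, 7 had a positive rho with Slc6a3, with a median of 0.455 beside -0.00699 over all probe sets. En1, a homeobox gene of midbrain dopamine neurons, reached 0.951, the second Chrna6 probe set 0.776, Aldh1a1 0.755, Ntsr1 0.657, Foxa2 0.455 and Pitx3 0.0490, whereas the 4 probe sets of Calb1, which is widespread in brain, ran from -0.909 to -0.133. Of the 7 genes, 0 were called in the regular arm and 1, Foxa2, was called lower in the nano arm (-6.14e-05 ± 1.57e-05, SE, n = 3 per group, pfp = 0.0241), with all Nano-Orz arrays below all Nano-Veh arrays. The summed log2 signal of the list, as its mean per probe set, ran from 7.822657 to 7.822665 in Regular-Orz and from 7.822668 to 7.822671 in Regular-Veh, and from 7.700636 to 7.700663 in Nano-Orz and from 7.700653 to 7.700672 in Nano-Veh. The part of this list in the Slc6a3 values was not tested. The choroid plexus list was as high, with 12 of 13 probe sets positive and a median rho of 0.497, so a high rho with Slc6a3 was not particular to midbrain markers. Of the 11 probe sets of arcuate neuron markers 1 had a positive rho with Slc6a3, beside 49.2% of all probe sets, and the median was -0.119. Several of the 11 belong to Nr5a2 or Pomc and are not independent. A low rho was not particular to arcuate markers. With Slc6a3, 4 of 16 hypothalamus marker probe sets were positive (median -0.227) and 2 of 16 of immediate early genes (median -0.234). The low count of arcuate markers was not shared by the other members compared. With Th 6 of the 11 were positive (median 0.0140), and with Slc18a2 9 of the 11 (median 0.210).

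The signals of some of these markers were low. En1 lay at the 0.882 percentile of its array in the regular arm and at the 1.25 percentile in the nano arm, and Chrna6 1450427_at at the 38.9 and 31.4 percentiles, beside 42.0 and 44.3 in the liver arrays. The files used here give no detection calls, so whether such a signal is above background is not known.

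For Th the closest genes were Cdk2ap1 (rho 0.979), Svopl (0.972), Coa4 (0.965), Ndufb11 (0.963), which encodes a subunit of respiratory complex I, and Znrf3 (0.951), a ubiquitin ligase gene. For Slc18a2 they were Znrf3 (0.923), Cd160 (0.902), Sart3 (0.888), Eif2ak1 (0.874) and Aldh7a1 (0.874). None of these genes was called in either arm, and the largest of their differences was -6.84e-06, for Znrf3 in the nano arm. Znrf3 was the only gene in both groups of 5.

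Lists of genes around the pathway held few or no calls, as most short lists would where 0.557% of all probe sets were called with Regular-Orz and 0.965% with Nano-Orz. None of the 5 genes of cofactor supply and regulation, the 5 other catecholamine enzymes, the 4 other monoamine transporters or the 3 other dopamine receptors with a probe set was called in either arm. The median differences of these lists ran from -5.54e-07 to -6.57e-08 with Regular-Orz and from -8.33e-08 to 7.92e-07 with Nano-Orz, beside -1.47e-08 and 2.43e-08 over all probe sets. Among 14 transcription factors of dopamine neurons 1 was called, Foxa2, in the nano arm. The serotonin, noradrenaline and histamine neuron markers had 0 called genes in both arms, and the histamine list includes the members Slc18a2 and Maob. Of 7 arcuate neuron marker genes, Pomc, the melanocortin precursor, was called lower in the nano arm by 1 of its 2 probe sets (-0.000449 ± 0.000392, SE, n = 3 per group, pfp = 0.0460), with overlapping arrays.

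Markers of other cell types were also called in these arrays. Their lists were chosen with earlier results of these data known, so the counts are a description and not a test. With Nano-Orz all 7 choroid plexus genes and all 7 meningeal fibroblast genes were called lower, beside 0.723% of all probe sets. Among them were Ttr, Kl, Kcnj13 and Folr1 of the first list and Ogn, Dcn, Col1a2 and Slc6a13 of the second. Their median differences were -0.00294 and -0.000586, and the mean choroid plexus signal was 9.439 in Veh 1 and 9.393 in Veh 2 against 7.417 in Veh 3 and 6.855, 8.388 and 7.675 in Orz 1 to 3. Veh 3 thus lay below Orz 2 and Orz 3, and the high arrays were Veh 1 and Veh 2 rather than the whole vehicle group. In the same arrays 5 of 12 immediate early genes were called higher, among them Fos, Dusp1, Nr4a1 and Egr1, although the mean signals of the list overlapped between groups, with Fos differing by 0.00535 ± 0.00261 (SE, n = 3 per group, pfp = 0, meaning that no permuted value reached its rank product). Nr4a3, of the same receptor family as Nr4a1, was on the list and was not called. The member Nr4a2, also of that family, was not on the list. With Veh 1 and Veh 2 both left out, only Veh 3 stood for the vehicle group. The Slc6a3 difference was then -0.00262 and those of Th and Slc18a2 were positive, at 5.75e-05 and 3.60e-05. Veh 3 was the lowest vehicle array for each of these genes, so leaving out the others had to move the differences upward. No conclusion is drawn from this. With Regular-Orz, Alb, Apoa2 and Ttr of the 7 hepatocyte list genes were called lower, with Alb at 6.542 to 6.601 in Regular-Veh and 6.517 to 6.538 in Regular-Orz. Ttr is also on the choroid plexus list, where it was the only gene called in this arm. Fos was called lower as well (-0.00378 ± 0.00775, SE, n = 3 per group, pfp = 0.00831). The part of these markers in the dopamine gene values was not tested.

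Of 13 hypothalamus marker genes, Oxt (0.00103 ± 0.000168, pfp = 0), Trh (0.000544 ± 0.000236, pfp = 0.005) and Crh (0.000107 ± 2.90e-05, pfp = 0.0371), which encode hypothalamic neuropeptides, were called higher in the regular arm without overlap (differences with SE, n = 3 per group). With Nano-Orz, Trh (4.83e-05 ± 1.28e-05, pfp = 0.0197) and Crh (8.05e-05 ± 8.67e-06, pfp = 0.00318) were called higher and Avp lower (-0.000147 ± 7.98e-05, pfp = 0.0138), also without overlap (differences with SE, n = 3 per group). Among 9 striatal genes, Six3 was called higher and Gnal lower in the regular arm, and Ppp1r1b, which encodes the dopamine signalling protein DARPP-32, lower in the nano arm (-0.000123 ± 5.37e-05, SE, n = 3 per group, pfp = 0.0220). Among 8 thalamic genes, Rgs16 was called higher in the nano arm. Of 5 pituitary genes, Cga was called higher in the regular arm (0.0316 ± 0.0405, SE, n = 3 per group, pfp = 0.0164) and lower in the nano arm (-0.0203 ± 0.00952, SE, n = 3 per group, pfp = 0), and 3 probe sets of Gh were called higher in the nano arm although their mean differences were negative. Of the genes named from these lists with a value, Oxt and Alb in the regular arm and Fos and Cga in the nano arm kept their call whichever array was left out, whereas Trh, Crh, Avp, Foxa2, Pomc, Ppp1r1b and, with Regular-Orz, Fos and Cga lost it without at least 1 array.

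No member probe set was called in liver in either arm, where 0.397% of all probe sets were called in either direction with Regular-Orz and 0.477% with Nano-Orz. The lowest pfp of a member was 0.925 with Regular-Orz and 0.242 with Nano-Orz, the latter for Gch1 1429692_s_at (9.51e-05 ± 6.85e-05, SE, n = 3 per group). The Ddc probe set 1426215_at had all Regular-Orz arrays below all Regular-Veh arrays, with a difference of -5.17e-06, and Nr4a2 1433422_at had all of them above, with a difference of 7.96e-06. This made 2 of 17 without overlap in the regular arm, beside 4.23% of all probe sets lower and 5.02% higher, and 1 of 17 in the nano arm, Nr4a2 1450750_a_at, beside 4.67% and 4.34%.

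Levels were set between tissues only for the same probe set, as its percentile among the 45101 probe sets of its own array, since tissues and arms appear to have been quantified separately. This places a signal and was not tested. The hepatocyte markers went with the labels: the 7 genes lay between the 98.3 and 100 percentiles in liver, and in hypothalamus the highest, Ttr, lay at 97.2. The hypothalamus markers did so only in part. Of these 13 genes, 5 lay above the 90 percentile in hypothalamus and 0 in liver. Above the 50 percentile lay 8 and 9 in the regular and nano arms of hypothalamus and 6 and 7 in liver. Sim1, Lhx6 and Rax stood higher in liver in both arms. Th, Slc18a2, Drd2 and 4 of the 6 Nr4a2 probe sets stood higher in hypothalamus. Th lay at 78.6 and 74.3 in the regular and nano arms of hypothalamus and at 41.0 and 46.9 in liver. Slc18a2 lay at 74.2 and 67.3 in hypothalamus against 0.315 and 2.31 in liver. Drd2 lay at 63.3 and 63.4 against 38.7 and 46.1, and Nr4a2 1455034_at at 72.0 and 80.4 against 3.06 and 11.7.

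Slc6a3 did not share this pattern. It lay at the 46.0 and 55.2 percentiles in hypothalamus and at 46.0 and 59.6 in liver, a tissue without dopamine neurons. Its 6 arrays spanned 0.00211 and 0.0703 log2 units in the regular and nano arms of hypothalamus, and 2.53e-05 and 7.00e-06 in liver. The gene thus had a hypothalamic signal no higher in rank than in liver but a far wider spread between arrays.

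Of the enzymes, Gch1, Ddc and Maob stood higher in liver, and Maoa did not. Gch1 1420499_at lay at 38.2 and 32.3 in hypothalamus and at 96.6 and 96.3 in liver, where tetrahydrobiopterin also serves phenylalanine hydroxylase. Ddc 1426215_at lay at 91.5 and 88.7 against 96.4 and 95.4, and Maob at 90.3 and 91.6 against 98.9 and 98.6. Maoa 1428667_at was alike in both tissues, at 84.9 and 85.5 against 85.8 and 83.1, while its probe set 1442676_at lay at 75.4 and 69.8 against 34.6 and 31.9.

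**Figure D5:**
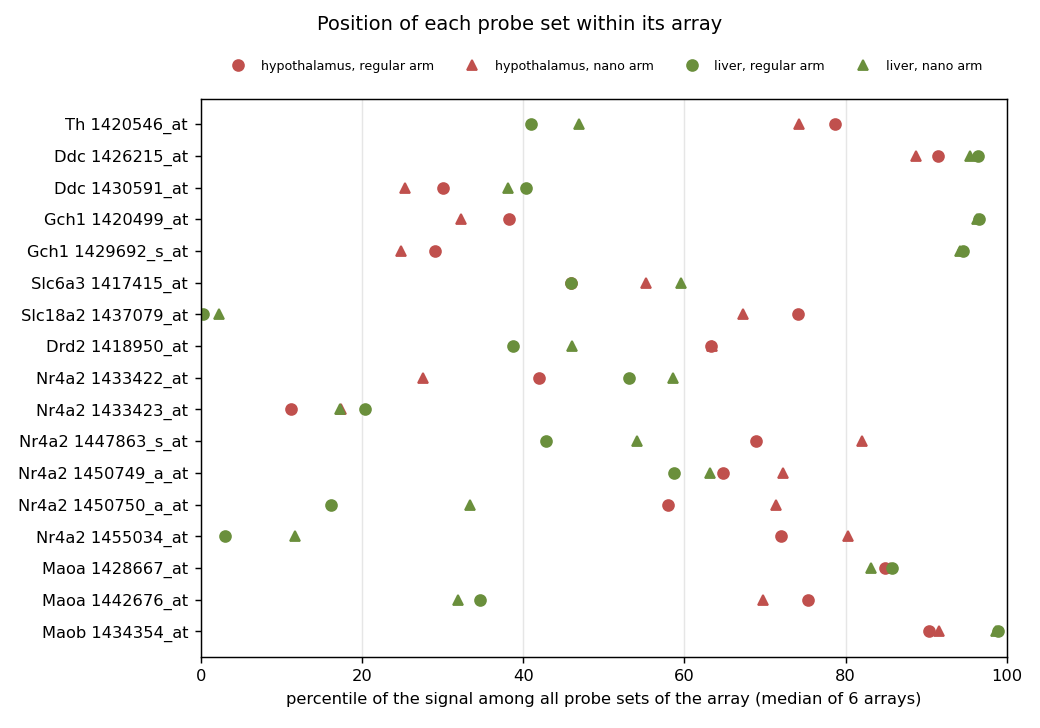
Position of each member probe set within its array, as the percentile of its signal among all probe sets (median of 6 arrays), for hypothalamus in red and liver in green, with circles for the regular and triangles for the nano arm. Th, Slc18a2, Drd2 and 4 of the 6 Nr4a2 probe sets stand higher in hypothalamus, Gch1 and Maob in liver, and Slc6a3 lies at 46.0 to 59.6 in both.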

How the data were processed

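Total RNA of 24 mouse samples was hybridized by the authors to Affymetrix Mouse430_2 arrays and quantified with DFW, and the deposited values are log2 signals of 45101 probe sets. No further normalization or filter was applied to the series table. The 4 tables per tissue and arm were not used, since their 24 sample columns carry animal codes that no label maps. The number of arrays, 3 per group, limits the precision, and no detection calls were used. Probe sets were named from the platform annotation (34958 with 1 symbol, 932 with several, 9211 with none).

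The members and the 18 other gene lists were chosen with earlier results of these data known, and some list genes also occur in the study's pathway tables. Of the listed symbols, 16 had no probe set alone and were not analysed here. Rank product used all 9 pairs and 100 permutations of values within arrays, and was called at pfp below 0.05, following the study's methods, which print the sign the other way. limma 3.58.1 in R 4.3.3 gave differences, SE, 95% intervals, adjusted p over all probe sets and the difference between arms. Every member probe set is named, and from the other lists up to 4 called genes per list, largest difference first, and for Th, Slc6a3 and Slc18a2 the 5 genes of highest Spearman's rho. Correlations had exact permutation p-values. Scripts ran in Python 3.11.15 with pandas 2.3.3, scipy 1.17.1, numpy 2.4.6 and matplotlib 3.10.9 and were tested on simulated data. Alternatives were a pfp below 0.01, limma and Student's test for calls, median centring, quantile normalization, dropping probe sets below the median mean, a rank product on differences divided by their spread, the replicate block and leaving out arrays. The animals are labelled as biological replicates.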

Additional observations from a re-analysis of the deposited data

Results flagged for a closer look

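The Nr4a2 probe set 1433422_at moved in opposite directions in the regular arm of the tissues: all Regular-Orz arrays were below all Regular-Veh arrays in hypothalamus (-2.54e-06, 3 against 3 arrays) and above them in liver (7.96e-06, 3 against 3 arrays). The rank product called it in neither tissue, the other 5 Nr4a2 probe sets overlapped between groups in both tissues of this arm, and the difference between tissues was not tested. Groups of 3 arrays were too small for a test of single outlying arrays.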

How the results depend on the processing

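Counts of called member probe sets rested on the rank product and on single arrays. In the regular arm of hypothalamus 1 was called, and 0 under limma, under Student's test after adjustment, under limma with the replicate block, under the rank product on spread-divided differences (pfp = 0.0525 for Slc6a3), and without probe sets below the median mean, which leaves Slc6a3 out. In the nano arm 2 were called, 1 at a pfp below 0.01, after quantile normalization and with the replicate block in the rank product (Slc6a3 in each), and 0 under limma with or without the replicate block, under Student's test with or without adjustment, and under the rank product on spread-divided differences (pfp = 0.691 for Slc6a3 and 0.882 for Th). Leaving out both Veh 1 and Veh 2, an alternative chosen after seeing the data, left only Veh 3 as vehicle. The Th difference then turned to 5.75e-05, which had to rise since Veh 3 was the lowest vehicle array for Th. Leaving out 1 array at a time gave 0 to 4 calls in the regular arm, 4 being Slc6a3 and 3 Nr4a2 probe sets without Orz 3, and 0 to 3 in the nano arm, 0 without Veh 2. Over all probe sets the same settings called 24 to 416 lower in the regular arm, 416 without Orz 3, and 63 to 377 in the nano arm. In liver 0 were called in both arms, and unadjusted Student's test, given here without its share over all probe sets, called 2 in the regular arm. For the difference between arms, 0 member probe sets passed and leaving out 1 array gave 0 to 1, an Nr4a2 probe set without Regular-Orz 3. Median centring changed no count.

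Same-numbered treated and vehicle arrays shared only a number in the labels. The Spearman correlation of their deviations from the group means ran from 0.0927 to 0.212 in the regular arm of hypothalamus, from 0.0687 to 0.374 in the nano arm, from 0.0160 to 0.218 in the regular arm of liver and from -0.195 to 0.0784 in the nano arm. In hypothalamus 6 of 6 arrays correlated best with their own number in each arm, and in liver 3 and 1 of 6 did, which is a hint from the data and not from the design. With the replicate block the rank product gave pfp = 0.0530 for Th in the nano arm.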
